A study of Mus musculus with 86 samples.

Results

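The 34 genes described here encode the enzymes and regulators with which mouse cells make cholesterol and fatty acids. They were chosen by name and taken from every deposited table, as 34 of 31054 genes in the count files and of 38277 genes in the tables of fragments per kilobase and per-million reads (FPKM). The sterol branch has 20 members: Acat2, Hmgcs1, Mvk, Pmvk, Mvd, Idi1, Fdps, Fdft1, Sqle, Lss, Cyp51, Tm7sf2, Nsdhl, Hsd17b7, Ebp, Sc5d, Dhcr7, Insig1, Srebf2 and Stard4. The fatty acid branch has 14: Srebf1, Acly, Acaca, Acacb, Fasn, Me1, Elovl5, Elovl6, Scd1, Fads1, Fads2, Gpam, Thrsp and Pnpla3. As background, both branches build on acetyl-CoA, one through mevalonate and squalene to cholesterol, the other through malonyl-CoA to saturated and desaturated fatty acids and triglycerides. Transcription of most of these genes is driven by SREBP2 and SREBP1, the products of Srebf2 and Srebf1, which INSIG proteins hold in the endoplasmic reticulum when sterols are plentiful. Liver is the main organ of both pathways in the mouse, and fat tissue makes fatty acids through the same enzymes.

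RNA from whole mouse kidneys, livers and lungs was sequenced in 2 experiments. Both concern MERTK, the receptor tyrosine kinase with which macrophages take up dying cells. The knockout experiment held kidneys of mice labelled Mertk knockout (KO) and of wild-type (WT) mice after unilateral ureteral obstruction (UUO) and the same genotypes after sham surgery, with 4 libraries in each KO group and 3 used in each WT group. Its livers came from KO and WT mice after bile duct ligation (BDL) and from KO and WT sham mice, with 4 libraries in each group. In the inhibitor experiment all mice were labelled wild type and were injected with UNC569, a small-molecule inhibitor of MERTK, or with its solvent DMSO. It held kidneys after UUO with UNC569 (7 columns for 8 samples) and with DMSO (4), livers after BDL with UNC569 (4 columns for 6 samples) and with DMSO (6), lungs after bleomycin with UNC569 (6) and with DMSO (6), and 3 sham samples for each agent in each organ. Age, sex, dose, time after injury, the design of the Mertk deletion and which samples share an animal are not given in the sources used here, so the p-values measure the spread between these samples only.

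The promoters of 4 members are printed to show the regulatory sequence of members on which the results turn, a pair from each branch. Gene positions are on GRCm38 throughout. Each runs from 250 bases before to 50 bases after the start of the gene in RefSeq on GRCm38.p6, and capitals mark matches on either strand to TCACNCNAC, a sterol regulatory element-like motif read as GTNGNGTGA on the other strand, and to CCAAT, the box bound by NF-Y, read as ATTGG.
Hmgcs1, chr13:119690101-119690400, plus strand: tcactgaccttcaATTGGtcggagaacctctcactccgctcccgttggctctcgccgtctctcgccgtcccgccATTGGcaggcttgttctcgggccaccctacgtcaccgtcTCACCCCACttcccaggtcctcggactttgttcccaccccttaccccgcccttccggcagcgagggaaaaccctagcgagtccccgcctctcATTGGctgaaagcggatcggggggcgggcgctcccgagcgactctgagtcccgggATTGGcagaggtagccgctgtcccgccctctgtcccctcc
Cyp51, chr5:4104648-4104947, minus strand: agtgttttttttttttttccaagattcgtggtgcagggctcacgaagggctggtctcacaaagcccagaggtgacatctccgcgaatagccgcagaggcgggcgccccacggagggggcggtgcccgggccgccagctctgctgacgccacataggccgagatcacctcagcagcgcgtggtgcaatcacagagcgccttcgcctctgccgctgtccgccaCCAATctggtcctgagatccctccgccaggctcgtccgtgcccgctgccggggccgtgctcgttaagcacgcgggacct
Fasn, chr11:120824498-120824797, minus strand: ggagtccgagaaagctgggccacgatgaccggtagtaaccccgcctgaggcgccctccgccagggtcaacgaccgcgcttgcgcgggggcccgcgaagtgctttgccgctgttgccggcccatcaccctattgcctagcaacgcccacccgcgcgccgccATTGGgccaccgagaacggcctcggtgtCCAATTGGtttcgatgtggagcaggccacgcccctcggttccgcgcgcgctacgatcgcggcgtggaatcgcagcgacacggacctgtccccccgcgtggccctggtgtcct
Me1, chr9:86695865-86696164, minus strand: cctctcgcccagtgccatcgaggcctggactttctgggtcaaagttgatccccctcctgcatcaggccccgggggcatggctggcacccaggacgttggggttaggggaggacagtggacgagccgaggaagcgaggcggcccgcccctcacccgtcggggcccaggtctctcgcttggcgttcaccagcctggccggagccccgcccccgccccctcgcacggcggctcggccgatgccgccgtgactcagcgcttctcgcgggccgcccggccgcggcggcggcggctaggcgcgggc
In the Hmgcs1 window the element-like match starts at base -137 and the CCAAT boxes at -237, -176, -45 and 10 from the start, and in the Cyp51 window the single box starts at -29. The Fasn window holds boxes at -90, -62 and -59, the last pair overlapping on opposite strands, and the Me1 window holds no match to either motif. TCACNCNAC occurred in 2.7% of 32851 RefSeq windows of the same length, in 2 of the 16 sterol members with a window (Hmgcs1 and Nsdhl) and in 0 of 12 fatty acid members. CCAAT occurred in 37.4% of all windows, in 14 of 16 sterol members and in 8 of 12 fatty acid members. A match is a string of letters and shows no binding.

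Counts are given as counts-per-million (CPM) after TMM normalisation and were tested with edgeR's quasi-likelihood test, and FPKM with limma on log2(FPKM + 1). Changes are log2 fold changes ± SE, those from FPKM on the log2(FPKM + 1) scale, which understates the change of low genes. A gene passed at a Benjamini-Hochberg adjusted p under 0.05 over all genes tested. The share of all genes whose groups did not overlap is not given here, so groups called separate below cannot be set against it. Between 7.22 and 28.5 M reads fell in genes in the 14 kidney libraries used, with the fewest in sham WT 3, where 58.5% of reads did not map, and between 14.5 and 23.4 M in the 16 liver libraries. The depth behind FPKM is unknown. The targeted gene did not separate the labels in kidney. Mertk had 59.6 to 83.5 CPM in sham libraries labelled KO, against 52.6 to 79.6 in sham WT, and 44.4 to 63.0 in UUO libraries labelled KO, against 51.1 to 65.0 in UUO WT. In liver it had 10.8 to 20.5 CPM in sham libraries labelled KO and 10.45 to 18.1 in sham WT, and 6.95 to 18.8 in BDL libraries labelled KO, against 21.3 to 28.4 in BDL WT (log2 -0.97, adjusted p = 0.0614). The libraries are therefore called KO below only as labelled. Library 1 of the UUO WT group and of the sham WT kidney group were left out, a choice made with their values known. In UUO WT 1 Fasn stood at 10434 CPM, Scd1 at 16422 CPM and Thrsp at 1469.8 CPM, against highest values of 172, 370.1 and 32.9 CPM in the 3 UUO WT libraries used. CPM of the left-out libraries come from a scaling with all kidney libraries, and CPM of the used ones from a scaling without them.

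After ureteral obstruction, sterol synthesis genes fell together in all 4 arms of the kidney data (KO label, WT, UNC569 and DMSO), and no sterol member rose in the KO-labelled, WT or DMSO arm. In libraries labelled KO, 18 of 20 sterol members fell. Of all 16395 genes tested there, 24.4% fell and 34.7% rose, 59.1% in all. In WT 14 sterol members fell, where 16% of all genes fell and 23.3% rose, 39.3% in all. With UNC569, 14 fell and 3 rose, where 34.5% of all 15338 genes fell and 27.5% rose, 62.1% in all. With DMSO 15 fell, where 25.8% of all genes fell and 29.7% rose, 55.5% in all. The branch median was -0.95 in KO-labelled, -1.39 in WT, -1.53 in UNC569 and -0.71 in DMSO kidneys, beside 0.23, 0.16, -0.07 and 0.08 over all genes tested. The fatty acid branch was divided: 4 of 14 members fell and 1 rose in KO-labelled libraries, 3 fell in WT, 9 of 13 tested fell and 1 rose with UNC569, and 5 of 13 fell with DMSO. Its medians were -0.00, -0.30, -0.71 and -0.40 in that order of arms. With the left-out WT libraries returned to the fit, the calls in KO-labelled kidneys dropped to 10 sterol and 3 fatty acid members, all of them lower, and the WT arm kept 13 lower sterol members and had 2 lower and 1 higher fatty acid members.

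**Figure D1:**
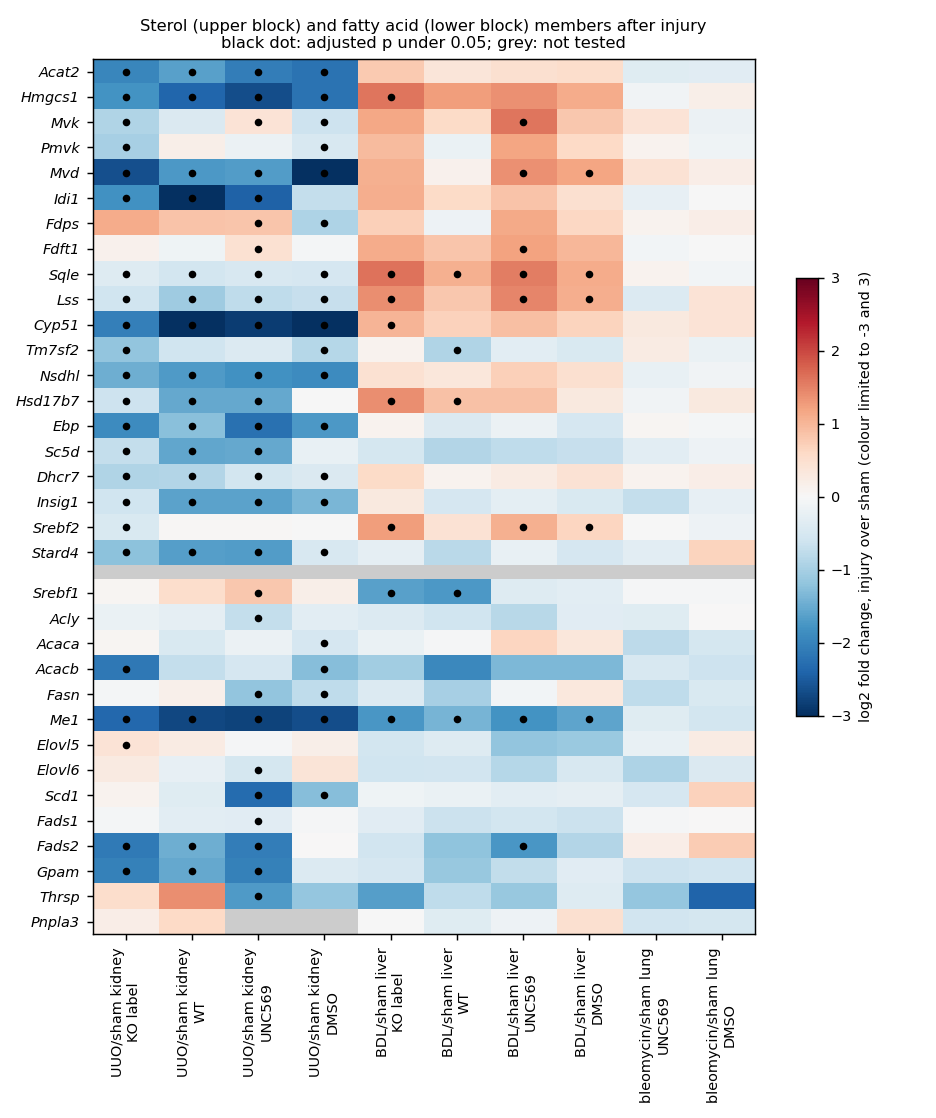
Log2 fold change of each member (rows, sterol branch above and fatty acid branch below) in injured over sham organs (columns), in blue for lower and red for higher, with a black dot where the adjusted p was under 0.05 and grey where the gene was not tested. The sterol rows are mainly blue in the UUO columns and mainly red in the BDL columns, and the lung columns hold no dot.

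The entry enzymes of the sterol branch carried some of its largest falls. Hmgcs1, HMG-CoA synthase (chr13:119690379-119708260, plus strand), whose promoter holds the element-like match shown above, had 176, 187, 132 and 235 CPM in UUO libraries labelled KO, against 693, 612, 575 and 651 CPM in sham libraries labelled KO (log2 fold change -1.79 ± 0.21, adjusted p = 8.45e-06). In WT it had 123, 184 and 119 CPM after UUO, against 845, 645 and 709 CPM after sham (-2.37 ± 0.24, adjusted p = 1.32e-05). The groups were far apart, with the highest obstructed library below the lowest sham library in both genotypes. In the inhibitor experiment Hmgcs1 had 27.9 to 51.7 (median 41.8) FPKM in UUO with UNC569, against 331, 239 and 226 FPKM in its sham group (-2.66 ± 0.20, adjusted p = 4.16e-09). With DMSO it had 43.3, 35.6, 24.9 and 38.5 FPKM after UUO, against 210.4, 132 and 165 FPKM after sham (-2.22 ± 0.22, adjusted p = 1.99e-07). All 4 arms thus separated completely for this gene. Acat2, which makes acetoacetyl-CoA, had the smallest p of the branch in KO-labelled libraries, with 41.5, 29.7, 25.8 and 30.05 CPM after UUO, against 133, 131, 116 and 114 CPM after sham (-1.96 ± 0.17, adjusted p = 1.33e-06).

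The mevalonate and isoprenoid steps were less uniform. Mvd, the decarboxylase that closes the mevalonate steps, had 16.3, 15.2, 10.3 and 12.3 FPKM in UUO with DMSO, against 112, 114 and 146 FPKM in sham with DMSO (-3.11 ± 0.17, adjusted p = 6.54e-10), and it also fell in the other 3 arms (-2.64 with the KO label, -1.72 in WT and -1.68 with UNC569). Idi1, isopentenyl diphosphate isomerase (chr13:8885501-8892451, plus strand), had 6.10, 4.76 and 7.67 CPM in UUO WT, against 136, 71.2 and 71.04 CPM in sham WT (-3.91 ± 0.37, adjusted p = 9.07e-06). In libraries labelled KO it had 21.8, 15.6, 11.01 and 13.3 CPM after UUO, against 62.8, 48.4, 34.2 and 70.8 CPM after sham (-1.81 ± 0.29, adjusted p = 0.000128). Both pairs of groups were separate, with the obstructed KO-labelled libraries all above the obstructed WT ones. Mvk and Pmvk, kinases of the mevalonate steps, each fell in 2 arms, in KO-labelled and DMSO kidneys, and Mvk was higher with UNC569 (0.40 ± 0.16, adjusted p = 0.0368). Fdps, farnesyl diphosphate synthase, differed in sign between arms, at -0.92 with DMSO (adjusted p = 0.00126) and 0.84 with UNC569 (adjusted p = 0.000982). Its counts in kidney, 0.746 to 1.54 CPM in UUO and 0.223 to 0.671 CPM in sham libraries labelled KO, were near the bottom of the range while its FPKM were 12.5 to 14.4 in UUO and 20.7 to 29.2 in sham with DMSO, so its values are uncertain. Fdft1, squalene synthase, rose with UNC569 only among the 4 arms tested (0.46 ± 0.12, adjusted p = 0.00399), and a difference between the arms' responses did not pass (adjusted p = 0.0603).

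From squalene onward, Cyp51, lanosterol demethylase (chr5:4081145-4104746, minus strand), fell far in each arm. It had 75.8, 47.99, 41.99 and 63.9 CPM in UUO libraries labelled KO, against 169, 140.2, 162 and 479 CPM in their shams (-2.05 ± 0.41, adjusted p = 0.000663). In WT it had 35.5, 38.4 and 43.2 CPM after UUO, against 399, 155 and 451 CPM after sham (-3.10 ± 0.49, adjusted p = 0.000257). With UNC569 it had 8.43 to 14.95 (median 13.3) FPKM after UUO, against 85.1, 109 and 91.03 FPKM after sham (-2.86 ± 0.16, adjusted p = 2.66e-10). In each pair every obstructed library lay below every sham library, and the sham counts themselves spread over a wide range. With DMSO, Cyp51 had 12.8, 10.7, 8.71 and 10.4 FPKM after UUO, against 101, 86.9 and 87.2 FPKM after sham (-3.0003 ± 0.18, adjusted p = 1.56e-09). Nsdhl, the sterol dehydrogenase that follows in demethylation, had 31.1, 24.4, 26.5 and 22.1 CPM in UUO, against 77.6, 81.1, 69.7 and 58.7 CPM in sham libraries labelled KO (-1.46 ± 0.15, adjusted p = 4.18e-06). Ebp, a sterol isomerase, had 27.9 to 58.02 (median 39.6) FPKM in UUO with UNC569, against 166, 214 and 191 FPKM in sham with UNC569 (-2.24 ± 0.16, adjusted p = 3.31e-09). Lss (lanosterol synthase) and Dhcr7 (the last reductase of the pathway) fell in 4 of 4 arms, Hsd17b7 and Sc5d in 3 and Tm7sf2 in 2.

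Sqle, squalene epoxidase (chr15:59315077-59331192, plus strand), fell in 4 of 4 arms but by small amounts. It had 80.1, 72.2, 63.7 and 75.4 CPM in UUO, against 92.2, 74.8, 87.2 and 129 CPM in sham libraries labelled KO (-0.39 ± 0.16, adjusted p = 0.0472), where only 2 of 4 obstructed libraries lay below every sham library. Sqle in WT kidneys had 65.97, 73.01 and 64.9 CPM after UUO, against 104, 90.9 and 105 CPM after sham (-0.56 ± 0.19, adjusted p = 0.0282). With UNC569 it had 8.83 to 17.8 (median 13.3) FPKM after UUO, against 16.1, 20.3 and 17.6 FPKM after sham (-0.48 ± 0.18, adjusted p = 0.029), and with DMSO 13.8, 13.2, 8.599 and 11.4 FPKM, against 17.7, 16.6 and 16.5 FPKM (-0.51 ± 0.20, adjusted p = 0.0397). The WT and DMSO groups did not overlap and the others did, and each of the 4 calls of this gene was lost in 4 to 9 of the alternative settings and single-library omissions.

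Among the regulators, the sensor Insig1 fell in 4 arms and the transcription factor Srebf2 in 1, that with the KO label. Insig1, which retains SREBP when sterols are high (chr5:28071363-28078662, plus strand), had 30.97, 26.7, 27.7 and 31.6 CPM in UUO, against 35.7, 54.6, 33.2 and 54.6 CPM in sham libraries labelled KO (-0.61 ± 0.18, adjusted p = 0.0105). The WT libraries had 18.8, 22.5 and 23.4 CPM after UUO, against 63.6, 76.1 and 57.3 CPM after sham (-1.60 ± 0.22, adjusted p = 7.59e-05). With UNC569 Insig1 had 3.62 to 10.7 (median 8.93) FPKM after UUO, against 21.9, 27.7 and 23.1 FPKM after sham (-1.61 ± 0.26, adjusted p = 4.05e-05), and with DMSO 10.6, 9.33, 9.68 and 8.68 FPKM, against 34.8, 17.3 and 29.2 FPKM (-1.36 ± 0.29, adjusted p = 0.000709). No pair of groups overlapped. Srebf2 (chr15:82147181-82205379, plus strand) had 140.4, 107, 103 and 83.97 CPM in UUO, against 157, 169.6, 138 and 129 CPM in sham libraries labelled KO (-0.45 ± 0.19, adjusted p = 0.0493). WT libraries had 122, 100.3 and 139 CPM after UUO, against 92.3, 122 and 138 CPM after sham (0.04 ± 0.21, adjusted p = 0.908). Its FPKM were 22.4 to 28.3 (median 24.7) after UUO, against 23.3, 26.1 and 23.6 after sham, with UNC569 (0.04 ± 0.12, adjusted p = 0.798), and 26.6, 27.3, 31.7 and 24.3, against 28.95, 22.1 and 32.9, with DMSO (-0.01 ± 0.14, adjusted p = 0.936). The groups of Srebf2 overlapped in every arm, and its call was lost in 8 of the alternatives and omissions. Stard4, a carrier of cholesterol between membranes, fell in 4 of 4 arms (-1.24 with the KO label, -1.64 in WT, -1.69 with UNC569 and -0.47 with DMSO).

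**Figure D2:**
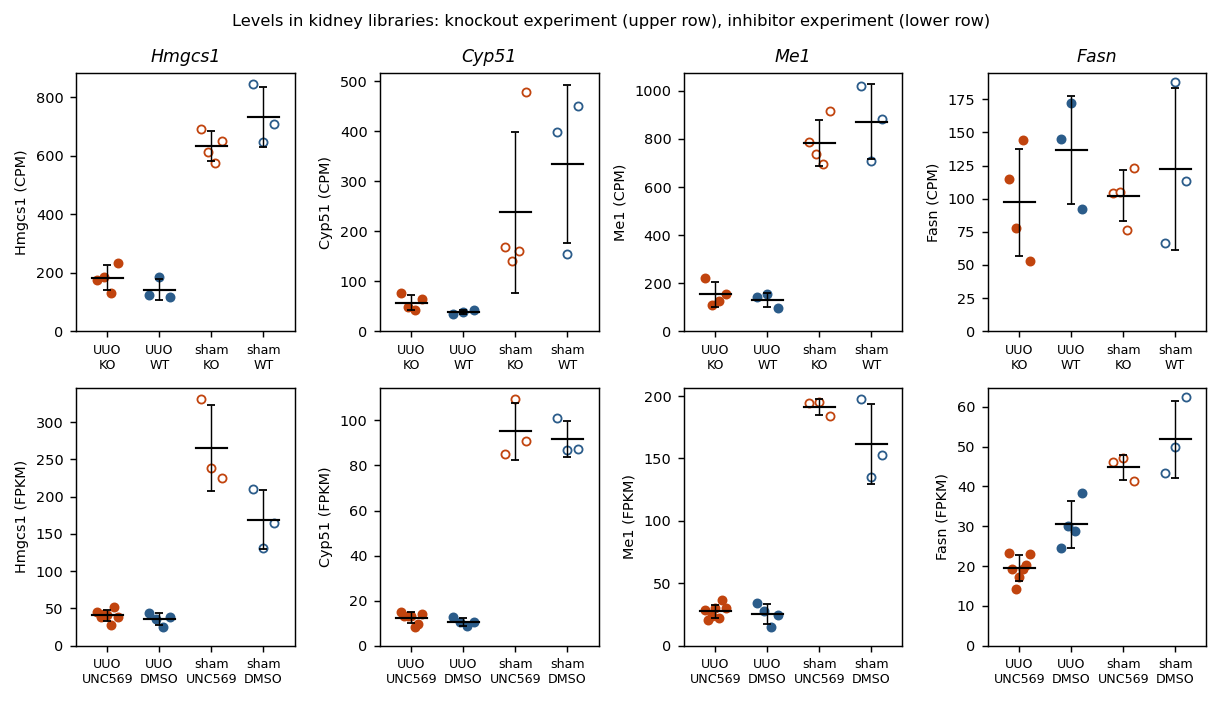
Levels of Hmgcs1, Cyp51, Me1 and Fasn in single kidney libraries (points), with the group mean (line) and SD (bar), as CPM in the knockout experiment (upper row) and FPKM in the inhibitor experiment (lower row), with obstructed groups left of sham groups. Hmgcs1, Cyp51 and Me1 are low in every obstructed group, and Fasn is lower after UUO in the inhibitor experiment, with overlapping groups in the knockout experiment.

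In the fatty acid branch Me1, malic enzyme, which supplies NADPH for synthesis (chr9:86581371-86695953, minus strand), fell as far as the sterol enzymes. It had 223, 109, 126 and 155 CPM in UUO, against 787, 738, 697 and 916 CPM in sham libraries labelled KO (-2.36 ± 0.25, adjusted p = 3.81e-06). WT kidneys had 142, 154 and 96.1 CPM after UUO, against 1020.0, 709.8 and 885 CPM after sham (-2.74 ± 0.29, adjusted p = 1.5e-05). With UNC569 it had 20.9 to 36.7 (median 28.2) FPKM after UUO, against 194, 195 and 184 FPKM after sham (-2.77 ± 0.21, adjusted p = 4.77e-09), and with DMSO 34.1, 27.7, 14.7 and 24.7 FPKM, against 197, 135 and 153 FPKM (-2.67 ± 0.23, adjusted p = 4.82e-08). No obstructed library reached a sham library in any arm. Gpam, which starts glycerolipid synthesis, had 31.1, 18.7 and 26.01 CPM in UUO WT, against 88.8, 77.99 and 53.5 CPM in sham WT (-1.54 ± 0.35, adjusted p = 0.00344), and Acacb, the mitochondrial acetyl-CoA carboxylase, had 13.1, 7.62, 11.1 and 9.39 CPM in UUO, against 38.999, 45.002, 52.1 and 45.1 CPM in sham libraries labelled KO (-2.14 ± 0.31, adjusted p = 5.79e-05). Fads2, a desaturase of polyunsaturated fatty acids, fell in 3 arms (-2.12 with the KO label, -1.47 in WT and -2.08 with UNC569), and in the DMSO arm had 2.21, 0.562, 1.57 and 1.19 FPKM, against 1.46, 0.994 and 1.45 FPKM (0.01 ± 0.26, adjusted p = 0.98).

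Some core enzymes of fatty acid synthesis passed in the inhibitor experiment and not in the knockout experiment, and the difference between the experiments was not tested. Fasn, fatty acid synthase (chr11:120805846-120824547, minus strand), had 115, 77.6, 144 and 52.98 CPM in UUO, against 104, 105, 76.2 and 123 CPM in sham libraries labelled KO (-0.07 ± 0.34, adjusted p = 0.872), and 145, 172 and 92.2 CPM in UUO WT, against 66.7, 188 and 113 CPM in sham WT (0.16 ± 0.39, adjusted p = 0.774). Those groups overlapped. In the inhibitor experiment Fasn had 14.2 to 23.2 (median 19.2) FPKM after UUO, against 46.2, 47.1 and 41.2 FPKM after sham, with UNC569 (-1.17 ± 0.16, adjusted p = 5.3e-06), and 24.6, 30.04, 28.8 and 38.4 FPKM, against 43.4, 49.8 and 62.4 FPKM, with DMSO (-0.75 ± 0.18, adjusted p = 0.00155), with no overlap. Acly, ATP citrate lyase, had 183, 161, 214 and 109 CPM in UUO, against 218, 205, 154 and 184 CPM in sham libraries labelled KO (-0.19 ± 0.24, adjusted p = 0.518), and 207, 96.7 and 174 CPM in UUO WT, against 168, 226 and 185 CPM in sham WT (-0.28 ± 0.28, adjusted p = 0.464). Its FPKM were 11.5 to 20.7 (median 17.7) after UUO, against 28.4, 25.9 and 26.9 after sham, with UNC569 (-0.71 ± 0.16, adjusted p = 0.00111), and 22.4, 20.9, 26.1 and 25.6, against 28.5, 25.1 and 35.8, with DMSO (-0.31 ± 0.18, adjusted p = 0.164). Of these 4 comparisons of Acly, the one with UNC569 passed.

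Scd1, stearoyl-CoA desaturase (chr19:44394455-44407879, minus strand), had the widest spread of all members in sham kidneys labelled KO. It had 104, 58.2, 232 and 82.8 CPM in UUO, against 39.2, 15.9, 32.4 and 358 CPM in sham libraries labelled KO (0.10 ± 0.82, adjusted p = 0.925), and 169, 370.1 and 56.2 CPM in UUO WT, against 332, 251.03 and 188 CPM in sham WT (-0.37 ± 0.94, adjusted p = 0.779). The spread within each group was wider than the difference between them. The FPKM were 7.63 to 13.5 (median 11.5) after UUO, against 60.5, 58.7 and 49.1 after sham, with UNC569 (-2.32 ± 0.27, adjusted p = 9.75e-07), and 13.03, 11.2, 10.6 and 34.98, against 43.2, 35.4 and 37.1, with DMSO (-1.27 ± 0.30, adjusted p = 0.00169). Elovl6, which lengthens saturated fatty acids, had 32.3, 34.8, 31.7 and 26.5 CPM in UUO, against 24.6, 28.2, 32.02 and 19.2 CPM in sham libraries labelled KO (0.27 ± 0.32, adjusted p = 0.481), and 25.9, 45.7 and 26.8 CPM in UUO WT, against 41.02, 60.3 and 16.1 CPM in sham WT (-0.25 ± 0.37, adjusted p = 0.62). With UNC569 Elovl6 had 2.48 to 4.47 (median 3.10) FPKM after UUO, against 5.27, 5.17 and 5.34 FPKM after sham (-0.54 ± 0.16, adjusted p = 0.00599), and with DMSO 5.48, 3.74, 3.96 and 5.23 FPKM, against 3.93, 3.13 and 2.70 FPKM (0.39 ± 0.17, adjusted p = 0.0607). It fell with UNC569, and its DMSO groups overlapped.

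Srebf1, which encodes SREBP1 (chr11:60199089-60222581, minus strand), went the other way from the enzymes in the UNC569 arm, with 20.5 to 28.6 (median 24.3) FPKM after UUO, against 12.6, 15.5 and 11.9 FPKM after sham (0.82 ± 0.16, adjusted p = 0.000194). With DMSO it had 18.5, 19.95, 30.4 and 18.02 FPKM after UUO, against 17.2, 19.2 and 19.6 FPKM after sham (0.18 ± 0.17, adjusted p = 0.391). Its counts were 90.7, 77.5, 78.9 and 46.2 CPM in UUO, against 75.7, 76.7, 49.7 and 78.9 CPM in sham libraries labelled KO (0.06 ± 0.24, adjusted p = 0.837), and 92.5, 81.2 and 86.9 CPM in UUO WT, against 41.3, 55.8 and 82.7 CPM in sham WT (0.54 ± 0.27, adjusted p = 0.136). Apart from the UNC569 arm, these groups overlapped. Elovl5, an elongase of polyunsaturated fatty acids, rose in KO-labelled libraries (0.41 ± 0.12, adjusted p = 0.00973), a call lost in 7 of the alternatives and omissions.

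Markers of kidney cell types moved with these falls. The summed level of 8 proximal tubule markers was 1294 to 6777 CPM in UUO, against 35473 to 44324 CPM in sham libraries labelled KO, and 1784 to 2796 CPM in UUO WT, against 21452 to 48796 CPM in sham WT. None of the 8 was at 0, and 8 of 8 fell in each of the 4 arms. With UNC569 the sum was 1509.8 to 2444 FPKM after UUO, against 39458 to 44419 FPKM after sham, and with DMSO it was 579.8 to 4095 FPKM, against 53807 to 60014 FPKM. Macrophage markers summed to 1471 to 2582 CPM in UUO, against 74.1 to 174 CPM in sham libraries labelled KO, and to 1046 to 2024 CPM in UUO WT, against 89.9 to 159 CPM in sham WT, with 8 of 8 and 7 of 8 of them higher. The 8 adipocyte markers summed to 44.3, 44.9, 228 and 119 CPM in UUO, against 24.1, 16.4, 17.2 and 47.5 CPM in sham libraries labelled KO, and to 203, 467 and 86.5 CPM in UUO WT, against 37.9, 486 and 51.7 CPM in sham WT, with every one of the 8 detected in some library of each group. Of 7 tested, 3 rose with the KO label and 0 passed in WT with edgeR. With UNC569 the 8 markers summed to 32.7 to 83.6 FPKM after UUO, against 67.3 to 148 FPKM after sham, and 4 of 6 tested fell. With DMSO the sums were 73.1 to 214 FPKM after UUO, against 45.3 to 136 FPKM after sham, and 0 of 6 passed with limma. In bulk tissue, fewer cells of a type and less RNA per cell cannot be told apart, and the part of these cell types in the members' changes was not tested.

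No member passed the test between kidneys labelled KO and WT, obstructed or sham. Between UUO libraries labelled KO and UUO WT, 0 of 34 members passed with edgeR, as did 0% of all genes. At an unadjusted p under 0.05 were 4 sterol and 2 fatty acid members and 11.6% of all genes. The smallest p of the sterol branch belonged to Idi1, with 21.8, 15.6, 11.01 and 13.3 CPM in UUO libraries labelled KO and 6.10, 4.76 and 7.67 CPM in UUO WT (1.32 ± 0.33, adjusted p = 0.43). Sc5d, a sterol desaturase, came next, with 32.02, 36.9, 30.4 and 38.8 CPM, against 25.6, 26.7 and 25.1 CPM (0.42 ± 0.17, adjusted p = 0.43). For both, every library labelled KO lay above every WT library. Acacb had 13.1, 7.62, 11.1 and 9.39 CPM, against 11.9, 31.8 and 13.6 CPM (-0.89 ± 0.32, adjusted p = 0.43), and Thrsp, a regulator of fat synthesis known from liver and fat, had 2.04, 1.44, 8.54 and 1.57 CPM, against 7.08, 32.9 and 3.69 CPM (-2.09 ± 0.80, adjusted p = 0.43). These 2 members overlapped between the labels. In sham kidneys 0 members passed with edgeR, where 0.0061% of all genes did. An unadjusted p under 0.05 was found for 3 sterol and 0 fatty acid members and 15.7% of all genes. Sham levels of Insig1 and Idi1, the sterol members with the smallest p, are given above. Acaca, the cytosolic acetyl-CoA carboxylase, had 23.6 to 31.2 CPM in sham libraries labelled KO, against 24.1 to 80.2 CPM in sham WT (-0.64 ± 0.36, adjusted p = 0.38). For the difference by label in the response to UUO 0 members and 0% of all genes passed with edgeR. There, 5 sterol members, 1 fatty acid member and 27.2% of all genes had an unadjusted p under 0.05. The smallest adjusted p, 0.0946, was shared by Idi1 (2.10), Insig1 (0.996) and Sc5d (0.83), the last with 51.9, 63.4, 54.7 and 57.6 CPM in sham libraries labelled KO and 74.04, 95.04 and 58.04 CPM in sham WT. Acacb followed (-1.42 ± 0.46, adjusted p = 0.101), with 38.9, 19.6 and 35.5 CPM in sham WT. DESeq2 called 4 members in this difference of responses, and edgeR called 10 without library 4 of sham WT, when 5 members also passed between the sham groups. The shares of all genes in those fits are not given here, so these counts cannot be set against them.

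Kidneys with UNC569 and with DMSO differed in 11 members after sham and in 1 after UUO. Between sham kidneys with UNC569 and with DMSO, 4 sterol members were higher and 4 lower and 3 of 13 fatty acid members were higher, where 13.3% of all genes were higher and 6.05% lower, 19.3% in all. Fdps had 12.9, 8.38 and 7.63 FPKM in sham with UNC569, against 28.4, 20.7 and 29.2 FPKM in sham with DMSO (-1.37 ± 0.23, adjusted p = 0.00106), and Sc5d had 29.1, 26.2 and 27.2 FPKM, against 15.9, 9.60 and 12.8 FPKM (1.07 ± 0.19, adjusted p = 0.00133). Those groups did not overlap. Mvd (-1.07), Mvk (-0.76) and Pmvk (-0.58) were lower and Hsd17b7 (1.17), Stard4 (0.85) and Idi1 (1.29) were higher. Of the fatty acid members, Fads2 had 3.44, 6.57 and 8.30 FPKM, against 1.46, 0.994 and 1.45 FPKM (1.57 ± 0.28, adjusted p = 0.00149), and Gpam had 10.53, 11.7 and 14.7 FPKM, against 3.91, 3.57 and 4.33 FPKM (1.43 ± 0.28, adjusted p = 0.00284). Elovl6 was higher as well (0.57 ± 0.18, adjusted p = 0.0389). Of the hepatocyte markers, 5 of 7 tested were lower in the same comparison, with sums of 41.96, 34.5 and 37.6 FPKM in sham with UNC569, against 354, 39.4 and 409 FPKM in sham with DMSO. Of the adipocyte markers, 3 of 6 were higher, with sums of 148, 107 and 67.3 FPKM, against 45.3, 136 and 50.9 FPKM. Macrophage markers, 2 of 7 lower, summed to 56.01 to 113 FPKM, against 132 to 169.8 FPKM. Proximal tubule sums were 39458 to 44419 FPKM, against 53807 to 60014 FPKM (1 of 8 markers higher). The 6 genes used as cholangiocyte markers in liver summed to 827 to 859.6 FPKM, against 605 to 650.0 FPKM (1 of 6 lower). None of these 3 sums overlapped, and in the last 2 lists the sum went against the gene that passed. In sham WT libraries the cholangiocyte list summed to 904 to 2053 CPM in kidney and 38.99 to 76.4 CPM in liver. In kidney it therefore does not stand for bile duct cells. The part of cell types in the result was not tested.

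In obstructed kidneys 1 member passed between the same agents. Fasn was lower with UNC569 than with DMSO, at the levels given above (-0.62 ± 0.14, adjusted p = 0.0477), where 1.3% of all genes passed and 1.05% were lower, and the call was lost in 15 of the alternatives and omissions. With limma 0 sterol members passed, and 5 of 20 had an unadjusted p under 0.05, as did 18.4% of all genes, led by Ebp with 27.9 to 58.02 (median 39.6) FPKM in UUO with UNC569, against 49.7, 53.5, 48.3 and 58.5 FPKM in UUO with DMSO (-0.41 ± 0.15, adjusted p = 0.162). Mvd came next, with 13.8 to 23.03 (median 18.3) FPKM, against 16.3, 15.2, 10.3 and 12.3 FPKM (0.37 ± 0.14, adjusted p = 0.181). Both overlapped between the agents. Acly came next in the fatty acid branch, without passing (-0.53 ± 0.15, adjusted p = 0.0789). The 8 adipocyte markers summed to 32.7 to 83.6 FPKM in UUO with UNC569, against 85.1, 82.2, 73.1 and 214 FPKM in UUO with DMSO, and the part of fat cells in the difference of Fasn was not tested. The response to UUO itself differed between UNC569 and DMSO for 7 sterol members (3 higher and 4 lower) and 3 of 13 fatty acid members (all lower), where 6.17% of all genes were higher and 13.4% lower. It was higher for Fdps (1.76 ± 0.28, adjusted p = 0.000972), Mvd (1.44 ± 0.24, adjusted p = 0.0011) and Mvk (1.01 ± 0.24, adjusted p = 0.00829). It was lower for Idi1 (-1.70 ± 0.44, adjusted p = 0.0128), Hsd17b7 (-1.52 ± 0.29, adjusted p = 0.00233), Sc5d (-1.32 ± 0.23, adjusted p = 0.00173), Stard4 (-1.21 ± 0.25, adjusted p = 0.00359), Fads2 (-2.09 ± 0.35, adjusted p = 0.00125), Gpam (-1.62 ± 0.35, adjusted p = 0.00531) and Elovl6 (-0.93 ± 0.23, adjusted p = 0.0111). All 10 also differed between the sham groups, in the opposite direction, and that comparison shares its sham libraries with this one.

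**Figure D3:**
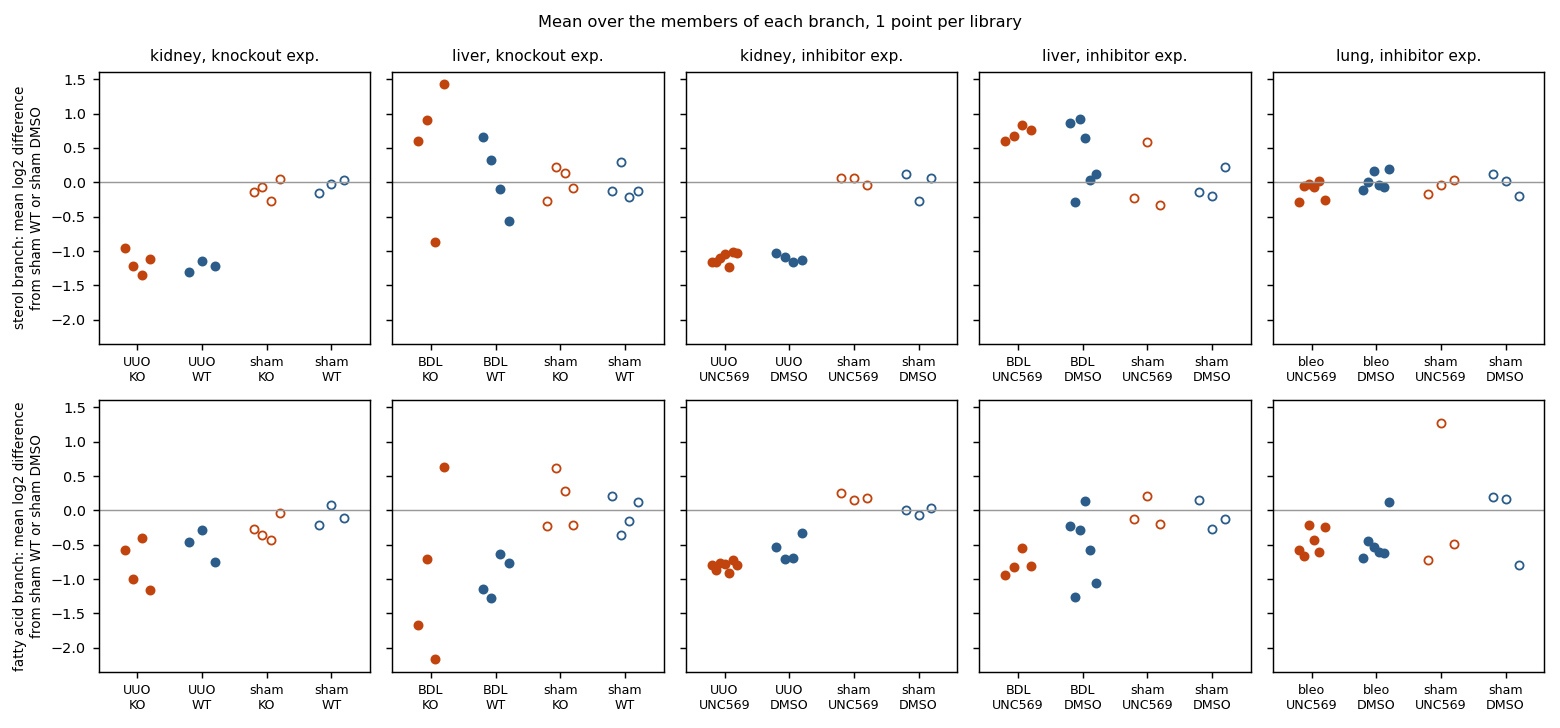
Mean over the members of each branch of log2 of a library's level plus 1 over that of the sham WT or sham DMSO mean plus 1, with 1 point per library, injured groups left of sham groups and the sterol branch above the fatty acid branch. Obstructed kidneys lie between -1.34 and -0.95 in the sterol branch, ligated livers spread from -0.87 to 1.43, and lung sham libraries spread from -0.80 to 1.28 in the fatty acid branch.

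Averaged over members, the sterol branch stood at -1.34 to -0.95 in UUO libraries labelled KO, -1.31 to -1.15 in UUO WT, -1.23 to -1.01 in UUO with UNC569 and -1.16 to -1.03 in UUO with DMSO, relative to the sham WT or sham DMSO mean. Sham libraries stood at -0.26 to 0.04 with the KO label and -0.16 to 0.03 in WT, and at -0.03 to 0.07 with UNC569 and -0.27 to 0.13 with DMSO. For the fatty acid branch the obstructed ranges were -1.15 to -0.40 with the KO label, -0.75 to -0.28 in WT, -0.91 to -0.72 with UNC569 and -0.71 to -0.33 with DMSO. Sham ranges of that branch were -0.43 to -0.03 with the KO label, -0.22 to 0.07 in WT, 0.15 to 0.25 with UNC569 and -0.07 to 0.03 with DMSO. Every obstructed library thus lay below every sham library of its arm in the sterol mean, and in the fatty acid mean this failed only in the KO-labelled arm.

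After bile duct ligation sterol members rose in the KO-labelled, UNC569 and DMSO arms, and the few calls in WT went both ways. In liver, 6 of 20 sterol members rose in libraries labelled KO, where 14% of all 13492 genes did, and 2 rose and 1 fell in WT, where 16.3% and 12.8% did. Counting both directions, 25.1% of all genes passed with the KO label and 29.1% in WT. With UNC569, 6 rose, where 3.66% of all 12986 genes did, and with DMSO 4 rose, where 5.47% did, with 8.56% and 13.4% of all genes passing in either direction. Branch medians were 0.99 with the KO label, 0.34 in WT, 0.89 with UNC569 and 0.56 with DMSO, beside 0.07, 0.03, -0.01 and -0.10 over all genes. Fatty acid members fell or did not pass: 2 fell with the KO label, 2 in WT, 2 with UNC569 and 1 with DMSO, where 11.2%, 12.8%, 4.9% and 7.92% of all genes fell, and the branch medians were -0.53, -0.71, -0.79 and -0.37. These counts rest on few libraries. For the fits below with libraries left out, the shares of all genes that passed are not given here. Without BDL KO 3, 12 members of both branches passed in WT in place of 5. Without BDL KO 4, 8 passed in WT, and with the KO label 14 in place of 8. Leaving out any sham library labelled KO left 5 calls with that label. In WT, 3 calls were left without sham WT 1, sham WT 3, BDL WT 1 or BDL WT 2, and 2 without sham WT 4. With UNC569, 3 of 8 calls were left without sham column 3, 4 without sham column 1 or BDL column 1, and 5 without BDL column 2 or 4. With DMSO, 1 of 5 calls was left without sham column 3, 2 without sham column 2 and 3 without BDL column 5 or 6. By branch, omissions of single libraries gave 3 to 10 higher and 0 to 1 lower sterol members with the KO label, 3 to 9 higher with UNC569 and 1 to 6 higher with DMSO. In WT they gave 0 to 6 higher and 1 to 2 lower sterol members. It was 0 higher and 1 lower without sham WT 1, 3 or 4 or BDL WT 1 or 2. Lower fatty acid members numbered 1 to 10 with the KO label, 1 to 5 in WT, 0 to 3 with UNC569 and 0 to 2 with DMSO. Without BDL KO 4 there were 10 with the KO label, at a branch median of -1.70, and 5 in WT. Without BDL KO 3 there was 1 with the KO label, at a median of -0.20, and 4 in WT.

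Sqle rose in 4 of 4 liver arms. It had 312, 252, 98.6 and 333 CPM in BDL, against 60.8, 104, 92.01 and 67.1 CPM in sham libraries labelled KO (1.62 ± 0.36, adjusted p = 0.00568), and 228, 202, 135 and 111 CPM in BDL WT, against 60.1, 129, 73.02 and 62.9 CPM in sham WT (1.06 ± 0.36, adjusted p = 0.0359). In each genotype 3 of 4 ligated libraries lay above every sham library. With UNC569 Sqle had 105, 124, 121 and 124 FPKM after BDL, against 34.2, 67.1 and 28.5 FPKM after sham (1.53 ± 0.26, adjusted p = 0.0018), and with DMSO 58.4 to 102 (median 82.1) FPKM, against 34.4, 36.9 and 37.3 FPKM (1.11 ± 0.24, adjusted p = 0.00665). Those groups did not overlap.

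Srebf2 rose in 3 arms. It had 175, 157, 152 and 145 CPM in BDL, against 63.6, 64.3, 64.9 and 69.97 CPM in sham libraries labelled KO (1.26 ± 0.30, adjusted p = 0.00777). WT livers had 148, 88.6, 62.5 and 46.01 CPM after BDL, against 63.3, 93.4, 60.8 and 39.997 CPM after sham (0.42 ± 0.29, adjusted p = 0.291). The KO-labelled groups were widely separate while 1 of 4 ligated WT libraries exceeded every sham WT library. With UNC569 Srebf2 had 34.1, 34.9, 33.4 and 33.4 FPKM after BDL, against 17.9, 16.6 and 13.1 FPKM after sham (1.06 ± 0.19, adjusted p = 0.00232), and with DMSO 17.6 to 28.1 (median 22.5) FPKM, against 12.4, 15.002 and 15.01 FPKM (0.65 ± 0.17, adjusted p = 0.0214). Neither pair overlapped.

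Hmgcs1 had 528, 862, 211 and 1523 CPM in BDL, against 174, 305, 309 and 236 CPM in sham libraries labelled KO (1.61 ± 0.55, adjusted p = 0.0415), and 725, 919, 676 and 177 CPM in BDL WT, against 154, 474, 209 and 217 CPM in sham WT (1.25 ± 0.54, adjusted p = 0.0935). A single ligated library of each genotype, BDL KO 3 and BDL WT 4, stood within the sham range. Its FPKM were 382, 475, 415 and 508 after BDL, against 141, 302 and 118 after sham, with UNC569 (1.37 ± 0.44, adjusted p = 0.067), and 204 to 914 (median 332), against 148, 118 and 296, with DMSO (1.12 ± 0.41, adjusted p = 0.0824). The UNC569 groups were separate and the DMSO groups overlapped. Hsd17b7, a ketosteroid reductase of the pathway, had 257, 129.8, 90.8 and 152 CPM in BDL, against 61.2, 65.2, 54.6 and 57.8 CPM in sham libraries labelled KO (1.40 ± 0.31, adjusted p = 0.00538). Every ligated library was above every sham library there. Lss rose in 3 arms (1.41 with the KO label, 1.47 with UNC569 and 1.09 with DMSO) and Mvd in both inhibitor arms, with 23.6 to 46.8 (median 33.5) FPKM in BDL, against 14.6, 14.9 and 12.5 FPKM in sham with DMSO (1.19 ± 0.31, adjusted p = 0.0194). Mvk, Fdft1 and Cyp51 rose in 1 arm each, Mvk with UNC569 (1.61), Fdft1 with UNC569 (1.204) and Cyp51 with the KO label (1.03). Of the alternatives and omissions, 15 lost the call of Cyp51, 10 that of Fdft1 and 9 that of Hmgcs1 with the KO label, while 12 lost the call of Hsd17b7 in WT (0.88).

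Insig1 did not pass in any liver arm. It had 523, 385, 288 and 561 CPM in BDL, against 329, 353, 368 and 379.5 CPM in sham libraries labelled KO (0.30 ± 0.34, adjusted p = 0.533), and 310.4, 315, 321 and 74.4 CPM in BDL WT, against 393, 383, 343 and 317 CPM in sham WT (-0.49 ± 0.34, adjusted p = 0.283). Its FPKM were 273, 288, 228 and 331 after BDL, against 252, 467 and 327 after sham, with UNC569 (-0.28 ± 0.25, adjusted p = 0.559), and 182 to 315 (median 233), against 315, 363 and 290.5, with DMSO (-0.45 ± 0.23, adjusted p = 0.22). Ligated and sham groups overlapped in all 4 arms. Tm7sf2, a sterol reductase, was the 1 sterol member that fell, with 151, 68.7, 56.5 and 100.1 CPM in BDL WT, against 182, 163, 152 and 209.8 CPM in sham WT (-0.91 ± 0.25, adjusted p = 0.0138).

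**Figure D4:**
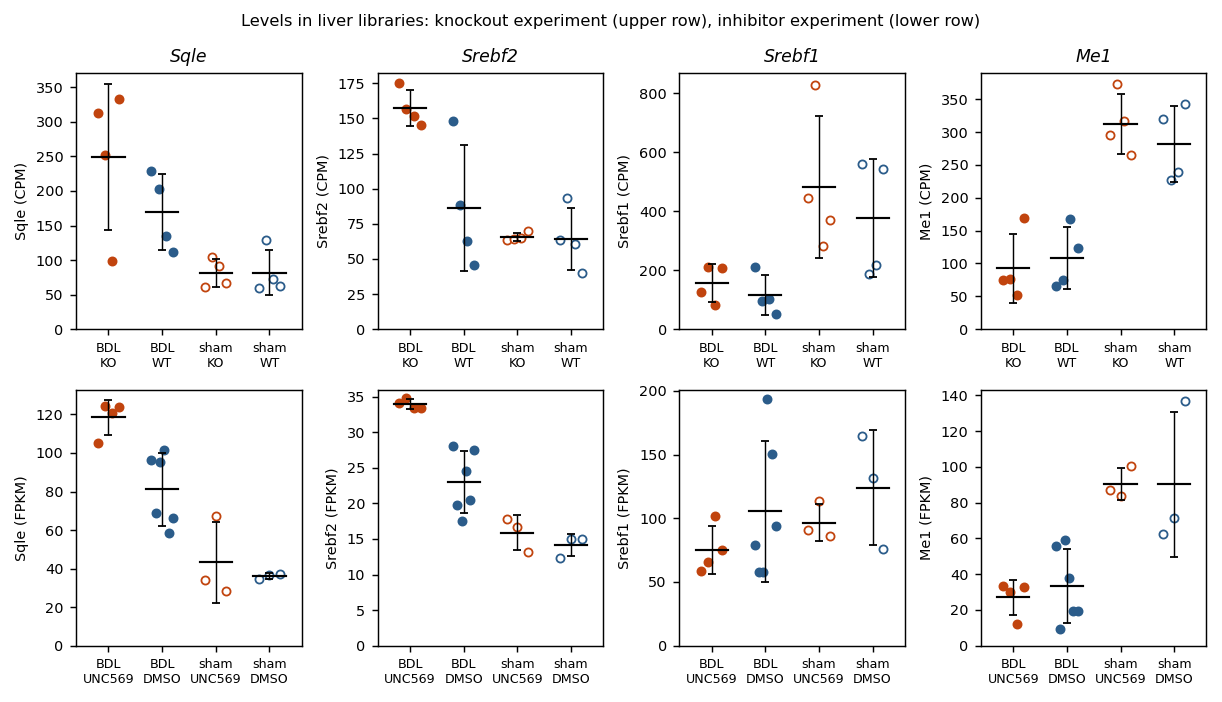
Levels of Sqle, Srebf2, Srebf1 and Me1 in single liver libraries (points), with the group mean (line) and SD (bar), as CPM in the knockout experiment (upper row) and FPKM in the inhibitor experiment (lower row), with ligated groups left of sham groups. Me1 is lower after ligation in every arm, 1 ligated Sqle library of each genotype stands within its sham range, and the WT groups of Srebf2 overlap.

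In the fatty acid branch of the liver Me1 fell in 4 of 4 arms. It had 74.3, 76.4, 51.5 and 169.5 CPM in BDL, against 295, 373, 316 and 264 CPM in sham libraries labelled KO (-1.75 ± 0.35, adjusted p = 0.00308), and 65.5, 74.5, 168 and 124 CPM in BDL WT, against 319, 226, 239.9 and 342 CPM in sham WT (-1.39 ± 0.35, adjusted p = 0.00804). With UNC569 it had 33.1, 30.03, 12.3 and 32.8 FPKM after BDL, against 86.98, 83.98 and 100.4 FPKM after sham (-1.79 ± 0.51, adjusted p = 0.0369), and with DMSO 9.46 to 59.1 (median 28.6) FPKM, against 62.6, 71.4 and 137 FPKM (-1.58 ± 0.47, adjusted p = 0.0361). No pair of groups overlapped. Srebf1 had 127, 210.0, 81.95 and 209 CPM in BDL, against 446, 829.4, 282 and 370.3 CPM in sham libraries labelled KO (-1.62 ± 0.48, adjusted p = 0.0242), and 210.4, 97.2, 102 and 51.4 CPM in BDL WT, against 559.6, 189, 218 and 544 CPM in sham WT (-1.71 ± 0.48, adjusted p = 0.0152). Its FPKM were 58.3, 66.03, 102 and 74.9 after BDL, against 90.8, 113 and 85.9 after sham, with UNC569 (-0.38 ± 0.38, adjusted p = 0.616), and 57.4 to 194 (median 86.4), against 165, 132 and 75.9, with DMSO (-0.32 ± 0.35, adjusted p = 0.597). Srebf1 passed with both genotypes and not with either agent. Its groups overlapped with either agent and in WT, where BDL WT 1 at 210.4 CPM lay above sham WT 2 at 189 CPM. They were separate with the KO label. Fads2 fell with UNC569, with 13.6, 12.7, 36.4 and 11.3 FPKM in BDL, against 39.6, 54.7 and 85.2 FPKM in sham (-1.73 ± 0.44, adjusted p = 0.0227). Acacb came second to Me1 with DMSO, with 2.05 to 17.04 (median 6.84) FPKM in BDL, against 27.5, 11.3 and 12.9 FPKM in sham (-1.34 ± 0.49, adjusted p = 0.0778).

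Fasn, Acly, Scd1 and Elovl6 did not pass in liver with all libraries in the fit. The omission of BDL KO 4 raised the number of lower fatty acid members with the KO label to 10. Fasn had 348, 544, 334 and 1479 CPM in BDL, against 549, 1583, 861 and 623 CPM in sham libraries labelled KO, and 417, 302, 398 and 244 CPM in BDL WT, against 869.9, 578, 581 and 686 CPM in sham WT. The WT groups did not overlap, without passing (-0.996 ± 0.44, adjusted p = 0.0978). With UNC569 Fasn had 235, 193, 207 and 184 FPKM after BDL, against 279, 214 and 166 FPKM after sham, and with DMSO 128 to 399 (median 219) FPKM, against 224, 187 and 134 FPKM. Acly had 97.1, 225, 68.3 and 541 CPM in BDL, against 198, 480.1, 339.7 and 228 CPM in sham libraries labelled KO, and 183, 158, 217 and 215 CPM in BDL WT, against 362, 223, 324 and 254 CPM in sham WT. The lowest and the highest value of Acly both came from ligated libraries labelled KO. Its FPKM were 33.2, 33.1, 52.04 and 29.2 after BDL, against 59.96, 89.9 and 50.4 after sham, with UNC569, and 27.3 to 63.98 (median 51.9), against 75.1, 54.5 and 49.4, with DMSO.

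Scd1 had 2304, 7165, 4306 and 12671 CPM in BDL, against 7484, 6959, 8702 and 5970.4 CPM in sham libraries labelled KO, and 2532, 4899, 8154 and 8468 CPM in BDL WT, against 8524, 5699, 7176 and 6077 CPM in sham WT. With UNC569 it had 2286, 2383, 4353 and 2547 FPKM after BDL, against 2509.7, 5507 and 2974 FPKM after sham, and with DMSO 1485 to 5545 (median 3457) FPKM, against 4742, 2033 and 6000.4 FPKM. Ligated and sham libraries overlapped in every arm, with the adjusted p of Scd1 between 0.706 with DMSO and 0.839 with the KO label. Elovl6 had 19.1, 51.2, 12.7 and 205 CPM in BDL, against 92.5, 142, 116 and 86.7 CPM in sham libraries labelled KO, and 41.2, 51.4, 91.7 and 65.3 CPM in BDL WT, against 100.1, 74.4, 87.1 and 109 CPM in sham WT. With UNC569 it had 14.9, 19.02, 34.3 and 18.2 FPKM after BDL, against 32.7, 35.3 and 47.1 FPKM after sham, and with DMSO 15.1 to 49.8 (median 26.99) FPKM, against 42.4, 31.4 and 43.2 FPKM. These groups overlapped too, and its smallest adjusted p over the arms was 0.148, with UNC569.

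Ligated livers labelled KO were uneven. BDL KO 3 was the lowest of the group in 18 of 20 sterol and 12 of 14 fatty acid members and BDL KO 4 the highest in 15 of 20 and 13 of 14, so the sterol mean ran from -0.87 to 1.43 and the fatty acid mean from -2.17 to 0.64. In ligated WT livers these means ran from -0.56 to 0.67 and from -1.28 to -0.64. Sums of liver cell type markers moved with ligation and with the label, but not in every library. Between BDL libraries labelled KO and BDL WT, 0 of 8 hepatocyte, 0 of 8 macrophage and 1 of 6 cholangiocyte markers passed, the last lower. After BDL with the KO label 3 of 6 cholangiocyte and 5 of 8 macrophage markers rose, and 1 hepatocyte marker rose and 2 fell. In WT 6 of 6 and 8 of 8 rose, and 2 hepatocyte markers fell. The 6 cholangiocyte markers summed to 51.6, 414, 207 and 75.8 CPM in BDL libraries labelled KO, against 33.9 to 97.9 CPM in their shams, and to 819.7, 829.6, 2276 and 1640.0 CPM in BDL WT, against 38.99 to 76.4 CPM in sham WT. The KO-labelled libraries at 51.6 and 75.8 CPM thus lay within their sham range. Macrophage markers summed to 93.03 to 691 CPM in BDL libraries labelled KO, against 134 to 163 CPM in their shams, and to 585 to 1107 CPM in BDL WT, against 139.5 to 179 CPM in sham WT. The 8 hepatocyte markers summed to 116432 to 173603 CPM in BDL, against 110501 to 115741 CPM in sham libraries labelled KO, and to 51805 to 97248 CPM in BDL WT, against 101985 to 126072 CPM in sham WT. With UNC569 cholangiocyte markers summed to 84.4 to 116 FPKM after BDL, against 30.5 to 77.1 FPKM after sham, and with DMSO to 118 to 804 FPKM, against 17.98 to 62.9 FPKM. Hepatocyte markers summed to 47043 to 51844 FPKM, against 35499 to 40893 FPKM, with UNC569 (1 of 8 higher, 1 lower). With DMSO they summed to 30939 to 44375 FPKM, against 32699 to 40900 FPKM (2 of 8 lower). Macrophage markers summed to 286 to 873 FPKM, against 185 to 428 FPKM, with UNC569, and to 530 to 1335 FPKM, against 149 to 312 FPKM, with DMSO. The part of these cells in the members' changes was not tested. The 8 adipocyte markers summed to 17.2 to 58.9 CPM in BDL, against 12.9 to 26.5 CPM in sham libraries labelled KO. In WT they summed to 10.7 to 127 CPM in BDL, highest in BDL WT 4, against 16.9 to 32.6 CPM in sham. With either genotype 0 of 3 tested passed with edgeR. Of the 8, Adipoq and Lep had no reads in any of the 16 liver count libraries, and the part of fat in the members' changes was not tested.

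Between ligated livers labelled KO and WT, 1 sterol member passed, Tm7sf2, where 4.39% of all genes did. It had 158, 145, 186 and 225 CPM in BDL libraries labelled KO, against 151, 68.7, 56.5 and 100.1 CPM in BDL WT (0.92 ± 0.25, adjusted p = 0.0493). The groups overlapped, with 3 of 4 KO-labelled libraries above every WT library, and the call was lost in 18 of the alternatives and omissions, without BDL KO 1, 3 or 4 among them. All 20 sterol members had a fold change above 0 and the branch median was 0.54, beside -0.02 over all genes, and hepatocyte and cholangiocyte marker sums differed between the same groups, as given above. Srebf2 came second (0.87 ± 0.30, adjusted p = 0.0823). Of the fatty acid members, Fasn (0.99 ± 0.44, adjusted p = 0.161) and Fads2 had the smallest p without passing, Fads2 with 50.98, 164, 34.03 and 733 CPM in BDL libraries labelled KO, against 114, 82.5, 201 and 123 CPM in BDL WT (0.92 ± 0.66, adjusted p = 0.386). In sham livers 0 members passed with edgeR, as did 0% of all genes, with 0 members and 0.519% of all genes at an unadjusted p under 0.05. Lss led the sterol branch there, with 48.3, 83.2, 74.03 and 53.4 CPM in sham libraries labelled KO, against 56.97, 61.3, 43.4 and 44.4 CPM in sham WT, and Pmvk followed, with 29.2, 56.7, 53.6 and 35.6 CPM, against 46.8, 53.8, 42.01 and 51.3 CPM, both overlapping. For the difference by label in the response to BDL 0 members passed with edgeR (0% of all genes passed, with 2 members and 14.5% of all genes at an unadjusted p under 0.05). Tm7sf2, with 157, 173, 179 and 153 CPM in sham libraries labelled KO, and Pmvk, with 65.9, 111, 24.8 and 134 CPM in BDL libraries labelled KO and 61.8, 39.4, 31.3 and 35.8 CPM in BDL WT, had its smallest p in the sterol branch, and Fasn and Thrsp in the fatty acid branch. Thrsp had 54.5, 166, 29.1 and 207 CPM in BDL, against 153, 749.5, 379 and 154 CPM in sham libraries labelled KO, and 142, 123, 43.97 and 381 CPM in BDL WT, against 381, 143, 182 and 471 CPM in sham WT, and its adjusted p for the difference was 0.712.

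Between ligated livers with UNC569 and with DMSO, 0 members passed with limma, where 0.316% of all genes did, with 3 sterol members, 1 fatty acid member and 11.2% of all genes at an unadjusted p under 0.05. The levels of Srebf2 and Sqle given above did not overlap between the agents, without passing (0.56 ± 0.16, adjusted p = 0.158 for Srebf2 and 0.57 ± 0.22, adjusted p = 0.341 for Sqle). Fads2 had 13.6, 12.7, 36.4 and 11.3 FPKM in BDL with UNC569, against 15.4 to 66.3 (median 28.8) FPKM in BDL with DMSO (-0.79 ± 0.38, adjusted p = 0.445), and Acaca had 17.7 to 30.6 FPKM, against 11.4 to 25.7 FPKM (0.34 ± 0.21, adjusted p = 0.584), both overlapping. In sham livers, and for the difference between the responses, 0 members passed with limma, as did 0% of all genes, and 0 had an unadjusted p under 0.05, where 1.86% and 4.7% of all genes had one. Mvk, among the sterol members with the smallest p in both, had 29.98, 21.8, 29.7 and 26.7 FPKM in BDL, against 7.48, 15.5 and 4.41 FPKM in sham, with UNC569, and 12.1 to 24.3 (median 18.4) FPKM in BDL, against 7.83, 9.10 and 12.5 FPKM in sham, with DMSO.

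In the lung no member passed in any comparison with limma, where 0.069% of all 15935 genes passed after bleomycin with DMSO, 0.0251% after bleomycin with UNC569 and 0% in the others. At an unadjusted p under 0.05 stood 3 members after bleomycin with DMSO, 4 after bleomycin with UNC569, and 2, 2 and 3 between the agents after bleomycin, between them after sham, and in the difference of responses. Of all genes, 19.6%, 10.6%, 5.29%, 7.57% and 11.9% stood there in the same order of comparisons. Stard4 had the smallest p after bleomycin with DMSO, with 14.7 to 22.9 (median 16.7) FPKM, against 10.2, 9.01 and 12.1 FPKM after sham (0.67 ± 0.16, adjusted p = 0.074). After bleomycin with UNC569 it had 10.52 to 14.5 (median 11.9) FPKM, against 13.2, 13.5 and 20.3 FPKM after sham (-0.31 ± 0.16, adjusted p = 0.497). The bleomycin groups of Stard4 did not overlap between the agents (-0.45 ± 0.13, adjusted p = 0.867). Without sham DMSO column 3, 2 members passed after bleomycin with DMSO, and 1 each between the sham groups and in the difference of responses. Without bleomycin DMSO column 1 or bleomycin UNC569 column 2, 1 passed after bleomycin with DMSO. The shares of all genes in those fits are not given here.

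No sterol member passed in lung, and most values given here lay within each other's ranges. Hmgcs1 had 27.3 to 38.8 (median 34.4) FPKM after bleomycin, against 32.9, 35.4 and 40.8 FPKM after sham, with UNC569, and 33.9 to 44.5 (median 40.7) FPKM, against 38.9, 36.5 and 29.4 FPKM, with DMSO. Sqle had 12.5 to 16.9 (median 14.6) FPKM after bleomycin, against 11.9, 12.2 and 17.6 FPKM after sham, with UNC569, and 13.1 to 20.4 (median 15.1) FPKM, against 21.7, 19.1 and 10.51 FPKM, with DMSO. Both genes overlapped between all these groups. Insig1 had 25.6 to 41.9 (median 31.4) FPKM after bleomycin, against 38.5, 70.3 and 57.5 FPKM after sham, with UNC569 (-0.71 ± 0.21, adjusted p = 0.335), and 23.03 to 43.4 (median 37.8) FPKM, against 50.03, 47.7 and 31.7 FPKM, with DMSO. Srebf2 had 36.3 to 53.3 (median 44.4) FPKM after bleomycin, against 50.6, 38.6 and 47.2 FPKM after sham, with UNC569, and 37.4 to 50.7 (median 43.8) FPKM, against 55.6, 47.6 and 45.2 FPKM, with DMSO. For these regulators too the groups overlapped. Acat2 had 10.504 to 14.3 (median 11.4) FPKM after bleomycin, against 13.2, 22.6 and 11.96 FPKM after sham, with UNC569, and 10.2 to 14.3 (median 11.7) FPKM, against 17.1, 16.1 and 13.04 FPKM, with DMSO. Mvk had 6.32 to 10.2 (median 8.29) FPKM after bleomycin, against 6.26, 5.03 and 6.59 FPKM after sham, with UNC569, and 5.89 to 11.3 (median 9.64) FPKM, against 12.8, 11.6 and 7.70 FPKM, with DMSO. The sham columns of Mvk did not overlap between the agents (-0.73 ± 0.22, adjusted p = 0.554). Lss had 3.91 to 7.72 (median 5.78) FPKM after bleomycin with UNC569, against 5.18 to 15.2 (median 10.9) FPKM after bleomycin with DMSO (-0.69 ± 0.23, adjusted p = 0.867).

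Fatty acid members of the lung varied most among the sham columns. Fasn had 87.3 to 187 (median 126) FPKM after bleomycin, against 105, 776 and 125 FPKM after sham, with UNC569, and 105 to 238 (median 131) FPKM, against 281, 283 and 94.9 FPKM, with DMSO. Scd1 had 336 to 797 (median 425) FPKM after bleomycin, against 272, 2266 and 443 FPKM after sham, with UNC569, and 274 to 900.2 (median 696) FPKM, against 522, 492.8 and 215 FPKM, with DMSO. Sham UNC569 column 2 stood far above the others in both genes. Elovl6 had 1.71 to 2.90 (median 2.40) FPKM after bleomycin, against 1.36, 33.4 and 2.14 FPKM after sham, with UNC569, and 1.53 to 4.34 (median 2.26) FPKM, against 5.13, 5.92 and 1.43 FPKM, with DMSO. Acly had 27.4 to 36.6 (median 29.5) FPKM after bleomycin, against 32.2, 62.7 and 31.8 FPKM after sham, with UNC569, and 29.2 to 36.9 (median 32.1) FPKM, against 38.2, 33.4 and 26.5 FPKM, with DMSO. That sham column was the highest of its group in 11 of 14 fatty acid members, and sham DMSO column 3 was the lowest of its own in 11 of 14. Srebf1 had 38.3 to 70.7 (median 44.8) FPKM after bleomycin, against 38.03, 82.4 and 38.6 FPKM after sham, with UNC569, and 33.002 to 62.05 (median 43.2) FPKM, against 55.5, 51.1 and 33.6 FPKM, with DMSO. Thrsp had 0.815 to 58.8 (median 12.4) FPKM after bleomycin, against 3.73, 469 and 9.11 FPKM after sham, with UNC569, and 2.13 to 96.5 (median 3.34) FPKM, against 115, 112 and 3.56 FPKM, with DMSO. Thrsp thus varied widely among the sham columns of each agent. With DMSO its medians, 3.34 FPKM after bleomycin and 112 FPKM after sham, lay about as far apart as its sham columns. Gpam had 9.28 to 16.8 (median 14.2) FPKM after bleomycin, against 15.6, 26.97 and 22.8 FPKM after sham, with UNC569 (-0.62 ± 0.22, adjusted p = 0.383), and 8.35 to 16.5 (median 11.9) FPKM, against 18.2, 17.8 and 17.7 FPKM, with DMSO (-0.58 ± 0.22, adjusted p = 0.165). The DMSO groups of Gpam did not overlap. Fads2 had 2.19 to 5.84 (median 4.30) FPKM after bleomycin, against 1.57, 1.38 and 3.39 FPKM after sham, with DMSO (0.77 ± 0.28, adjusted p = 0.162), and Elovl5 had 83.7 to 120.3 (median 103) FPKM after bleomycin with UNC569, against 94.95 to 134 (median 118) FPKM after bleomycin with DMSO (-0.20 ± 0.10, adjusted p = 0.867).

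Adipocyte markers varied in the same lung columns. The 8 genes summed to 25.8, 11.8, 225, 42.5, 9.50 and 185 FPKM after bleomycin, against 16.3, 2477 and 72.4 FPKM after sham, with UNC569, and 0 of 7 tested passed. With DMSO they summed to 12.03, 47.6, 12.4, 7.76, 6.07 and 299.8 FPKM after bleomycin, against 756, 761 and 7.01 FPKM after sham, again with 0 of 7. Cardiac muscle markers, 6 genes, summed to 35.3 to 1023 FPKM after bleomycin, against 112, 2768 and 97.3 FPKM after sham, with UNC569, and to 34.9 to 443 FPKM, against 2261, 2328 and 63.4 FPKM, with DMSO, so the sham columns rich in the adipocyte genes were also rich in these. Of the 8 adipocyte genes, Retn was at 0 in both DMSO groups and none was at 0 in the UNC569 groups, and the part of fat in the spread of the fatty acid members was not tested.

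**Figure D5:**
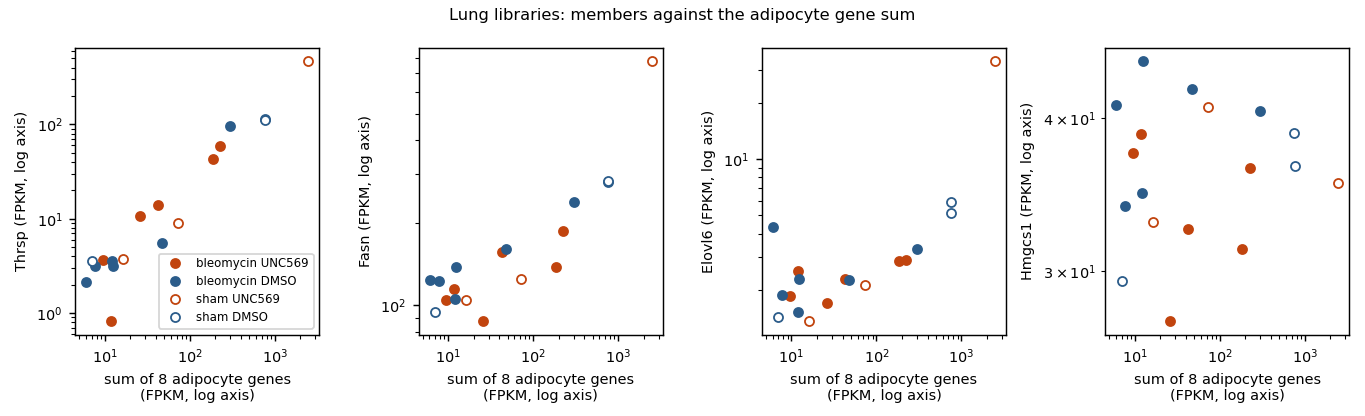
FPKM of Thrsp, Fasn, Elovl6 and Hmgcs1 in single lung columns against the summed FPKM of 8 adipocyte genes, on log axes, with filled points for bleomycin and open points for sham, in orange for UNC569 and blue for DMSO. Columns with high adipocyte sums have high Thrsp, Fasn and Elovl6, up to 469, 776 and 33.4 FPKM at a sum of 2477 FPKM, while Hmgcs1 lies between 27.3 and 44.5 FPKM at every sum.

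In uninjured organs, liver stood above kidney for most members. In sham WT libraries fitted together, 15 of 20 sterol and 12 of 14 fatty acid members were higher in liver, where 28.1% of all 14966 genes were, and 1 was lower, where 32.1% were, 60.2% in all. Sc5d had 622 to 761 CPM in sham liver, against 36.7 to 57.9 CPM in sham kidney (3.84 ± 0.22, adjusted p = 3.35e-10), and Tm7sf2 had 193 to 267 CPM, against 6.08 to 15.3 CPM (4.38 ± 0.26, adjusted p = 6.44e-10). Of the fatty acid members, Fads1, a desaturase of polyunsaturated fatty acids, had 609 to 775 CPM in liver, against 80.5 to 91.8 CPM in kidney (3.003 ± 0.17, adjusted p = 3.95e-10), and Elovl5 had 455 to 525 CPM, against 42.3 to 52.6 CPM (3.34 ± 0.21, adjusted p = 1.2e-09). None of these 4 overlapped. The members whose values are given in each organ differed by 3.49 for Fasn, 5.73 for Scd1, 3.66 for Srebf1, 3.46 for Insig1, 2.26 for Elovl6, 1.60 for Acly and 0.70 for Sqle, and all 7 passed. Hmgcs1 (-0.48 ± 0.31, adjusted p = 0.187) and Srebf2 (0.14 ± 0.22, adjusted p = 0.602) did not. Me1 was the 1 member lower in liver (-0.63 ± 0.20, adjusted p = 0.0117), with 3 of 4 liver libraries below every kidney library. With the left-out sham WT kidney library in the fit, 15 members passed in place of 28.

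Genes of neighbouring pathways that are not members are given by counts. The shares of all genes that rose or fell in each arm are those given above. Of 12 other genes of sterol synthesis and SREBP processing, 7 fell and 2 rose after UUO with the KO label, 6 fell in WT, 9 fell and 1 rose with UNC569 and 5 fell with DMSO. Aacs, which makes acetoacetyl-CoA from acetoacetate, had the smallest p of these in each arm (-3.002 with the KO label, -2.48 in WT, -2.93 with UNC569 and -2.63 with DMSO). After BDL 5 rose and 1 fell with the KO label, 1 rose and 3 fell in WT, 2 rose and 1 fell with UNC569 and 2 rose with DMSO, among them Mbtps2, a protease that releases SREBP (0.91 with the KO label and 1.08 in WT). Of 16 other genes of fatty acid and triglyceride synthesis, 15 were tested in kidney: 8 fell and 1 rose after UUO with the KO label, 5 fell and 2 rose in WT, 8 fell and 1 rose with UNC569 and 9 fell and 2 rose with DMSO. Lpin1, a phosphatidate phosphatase, was among the 2 with the smallest p in each arm (-1.94, -1.70, -2.38 and -1.34 in the same order). After BDL 5 fell and 2 rose with the KO label, 6 fell and 2 rose in WT, 5 fell and 3 rose with UNC569 and 4 fell and 2 rose with DMSO, among them Mlxipl, the glucose-responsive factor ChREBP (-2.72 with the KO label and -3.01 in WT).

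Sterol efflux genes and LXR targets, 10 in number with 8 tested in kidney, passed in both directions: after UUO 3 rose and 3 fell with the KO label, 3 rose and 1 fell in WT, 2 rose and 2 fell with UNC569 and 5 rose and 2 fell with DMSO, where 34.7%, 23.3%, 27.5% and 29.7% of all genes rose in that order of arms. Abca1, which exports cholesterol from macrophages and other cells, rose by 3.16 with the KO label, 1.70 in WT, 1.72 with UNC569 and 2.33 with DMSO. In liver 2 rose with the KO label, 2 rose and 1 fell in WT, 0 passed with UNC569 and 2 rose and 1 fell with DMSO. Of 9 genes of fasting and feeding, 7 tested in kidney, 5 fell after UUO with the KO label, 2 in WT and 7 with UNC569, and 2 fell and 2 rose with DMSO, with Pck1, a gluconeogenic enzyme, at -4.39 with the KO label and -5.56 with UNC569. In liver 2 rose and 2 fell with the KO label, as in WT, 1 rose and 2 fell with UNC569 and 2 fell with DMSO. In sham kidneys with UNC569 over DMSO, 4 of the other sterol genes, 3 of the other fatty acid genes and 5 of the fasting genes were higher and none of these was lower. No gene of the 4 lists passed in lung.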

How the data were processed

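The knockout experiment was deposited as STAR files of whole-number read counts per gene, and the inhibitor experiment as FPKM tables whose columns name a group and no sample; the program behind the deposited FPKM is not given in the sources used here. The submitters' processing notes name FastQC, Trim Galore, STAR and edgeR and the builds hg38 and mm10. Per the labels' protocols, RNA was made into libraries with a kit that does not mark strand, so the column of counts without strand was used and overlapping genes cannot be told apart. Reads in no gene, 22.1 to 67.6% per kidney library and 20.9 to 29.3% per liver library, stayed out of library sizes. Gene names matched 99.6% of IDs in the count files and 94.9% in the FPKM tables.

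For counts the test was that of edgeR 4.0.16 (quasi-likelihood, TMM, its own filter on low counts). For FPKM it was that of limma 3.58.1 on the log2(FPKM + 1) scale, keeping genes with at least 1 FPKM in 3 libraries. Both ran in R 4.3.3, with Benjamini-Hochberg adjustment over all genes kept and all groups of a tissue in 1 fit. Both tests were also run on simulated data in which few genes changed, as many up as down. Such data do not cover the large shares of genes that passed after UUO or the uneven ligated livers. The alternatives were RLE scaling, DESeq2 1.42.0, no filter, a replicate block, a pseudocount of 0.1, median-of-ratios scaling, averaging the closest pair of columns, returning the left-out libraries, leaving out the libraries whose labels note a bad fastq file (5 kidney, 4 liver), leaving out BDL KO 1 and BDL KO 3, and leaving out each library in turn. Members, gene lists and alternatives were chosen with earlier results of these data known. Values are printed by library for Hmgcs1, Sqle, Insig1, Srebf2, Srebf1, Fasn, Scd1, Acly, Elovl6 and the 2 members of each branch with the smallest p of a comparison, and other lists by counts and their 2 genes with the smallest p, except some genes of those lists that are not reported here.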

Additional observations from a re-analysis of the deposited data

Results flagged for a closer look

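Single libraries stood apart from the rest of their group in 8 of 132 groups examined with Dixon's test at the 95% level, where chance gives about 1 in 20. Insig1 was at 74.4 CPM in BDL WT 4, against 310.4, 315, 321 and 74.4 CPM in the 4 libraries of that group in order. Srebf1 was at 49.7 CPM in sham KO kidney 3 and at 30.4 FPKM in UUO DMSO column 3. Scd1 was at 358 CPM in sham KO kidney 4, at 34.98 FPKM in UUO DMSO column 4, at 4353 FPKM in BDL UNC569 column 3 and at 797 FPKM in bleomycin UNC569 column 2. The mean of the fatty acid branch was 0.12 in bleomycin DMSO column 6, the column with the highest adipocyte sum of that group.

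The response of the kidney to UUO differed between UNC569 and DMSO by a test of the difference itself for 10 members, where 19.6% of all genes passed. The difference, UNC569 minus DMSO, was 1.76 for Fdps, 1.44 for Mvd, 1.01 for Mvk, -0.93 for Elovl6, -1.21 for Stard4, -1.32 for Sc5d, -1.52 for Hsd17b7, -1.62 for Gpam, -1.70 for Idi1 and -2.09 for Fads2. All 10 also differed between the sham groups in the opposite direction, and both tests share those sham libraries. None of the 10 passed between the agents in obstructed kidneys.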

How the results depend on the processing

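No call of a member changed direction under any alternative. Without leaving out single libraries, 640 comparisons of called members with an alternative kept the call and 70 lost it, and leaving out single libraries kept 2380 and lost 205. The count of members called changed by over 1.5 times as follows, and the cause was not tested. Shares of all genes that passed under the alternatives and omissions are not given here, so a change in members may follow a change over all genes. With both left-out kidney libraries, 13 members passed for UUO over sham with the KO label in place of 23, and with sham WT 1 alone 15 passed for liver over kidney in place of 28. Without the libraries noted as bad fastq, 1 passed between KO and WT sham kidneys in place of 0, 2 for the difference of UUO responses by label in place of 0, 13 for BDL with the KO label in place of 8, 3 for BDL in WT in place of 5, and 0 between KO and WT after BDL in place of 1. DESeq2 called 4 for the difference of UUO responses by label and 2 between KO and WT after BDL. Without BDL KO 1 and BDL KO 3, 17 passed for BDL in WT, 14 for BDL with the KO label and 0 between the labels after BDL. That last comparison also had 0 calls with no filter on low counts and with the replicate block.

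In the inhibitor experiment, Fasn, the 1 call between UNC569 and DMSO after UUO, was lost (0 calls) with a pseudocount of 0.1, with no filter and with median-of-ratios scaling, and BDL with DMSO gave 3 calls with no filter and 8 with median-of-ratios scaling, in place of 5. That scaling moved the median over all genes by over 0.1 in 4 comparisons: to 0.06, against -0.07, for UUO with UNC569, to 0.04, against -0.13, for the difference of UUO responses by agent, to -0.06, against 0.07, between the agents in sham kidney, and to 0.01, against -0.10, for BDL with DMSO.

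Leaving out single libraries gave 20 to 23 calls for UUO with the KO label, 15 to 20 in WT, 24 to 28 with UNC569 and 15 to 21 with DMSO. It gave 5 to 14 for BDL with the KO label, 2 to 12 in WT, 3 to 10 with UNC569 and 1 to 7 with DMSO. Between the labels it gave 0 to 5 in sham kidney, 0 to 10 for the difference of UUO responses and 0 to 2 after BDL, where it was 2 without BDL WT 1. Between the agents it gave 0 to 1 after UUO, 8 to 13 in sham kidney and 10 to 12 for the difference of UUO responses. In lung it gave 0 to 2 for bleomycin with DMSO and 0 to 1 between the agents after sham and for the difference of responses, and for liver over kidney 26 to 29. All other comparisons stayed at 0.

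Replicate numbers of the knockout experiment did not pair the libraries: correlations of same-numbered deviations ran from -0.30 to 0.27. The replicate block gave 20 calls for UUO with the KO label and 17 in WT, lost 8 single calls and kept 74. The inhibitor columns carry no numbers from the labels, so no block could be fitted there. Low values limit some members: Fdps stood near 1 CPM in kidney counts while its FPKM in kidney were not low, and Pnpla3 was not tested in kidney FPKM. The cause of the gap for Fdps was not tested. Some groups have fewer columns than samples, and which samples those are is not known.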

Other observations

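Both kidney libraries left out stood above every used library of their group in Scd1, Insig1, Fasn and Thrsp. UUO WT 1 had 124 CPM of Hmgcs1, 56.01 CPM of Cyp51 and 205 CPM of Insig1. The Hmgcs1 value lay near and the Cyp51 value above those of the UUO WT libraries used, which were scaled without the left-out libraries. Sham WT 1 had 18090.1 CPM of Scd1, 930.1 CPM of Insig1, 896 CPM of Fasn and 74.7 CPM of Thrsp.

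Cholesterol ester enzymes divided by label in ligated livers: Soat2, the form of hepatocytes and intestine, was higher (1.59 ± 0.27, adjusted p = 0.0370 with edgeR) and Soat1, the form of macrophages and many other cells, was lower (-1.59 ± 0.34, adjusted p = 0.0384 with edgeR) in BDL libraries labelled KO than in BDL WT. Scap, the escort of SREBP, was higher (0.92 ± 0.23, adjusted p = 0.0413 with edgeR). The cholangiocyte marker Spp1 was lower in the same comparison (-3.12 ± 0.64, adjusted p = 0.0370 with edgeR), and its part in the difference was not tested. Of all genes in this comparison, 2.67% were higher and 1.72% lower. Whether the calls of Soat2, Soat1, Scap and Spp1 hold under the alternatives and omissions is not given here. The call of Tm7sf2 in the same comparison was lost in 18 of those.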
